A study of Mus musculus with 18 samples.

Results

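The genes described here encode the proteins of the cytosolic ribosome, which translates all nuclear-encoded mRNA. They were taken from the deposited table by name: symbols that begin with Rpl or Rps followed by a number, the stalk proteins Rplp0, Rplp1 and Rplp2, and Rpsa, without the Rps6 kinases and without names marked as pseudogenes. The rule found 83 of 14695 genes. By their annotation 43 encode proteins of the large subunit, 31 of the small subunit and 3 the stalk, 3 are diverged paralogues (Rps27l, Rpl22l1 and Rpl7l1), and 3 (Rpl6l, Rps3a2 and Rps3a3) are annotated as processed pseudogenes although their names pass the rule. Fau and Rpl36al, which also encode ribosomal proteins, and Rack1, a protein of the small subunit, lie outside the rule by name, as do 64 rows whose names mark them as pseudogenes.

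The libraries hold poly-A RNA of mouse CD8+ T cells from spleen and lymph node, primary cells targeted with CRISPR/Cas9. There were 6 groups of 3 libraries: Rosa26-targeted control cells, Atf4 knockout cells and Cebpg knockout cells, each either untreated or treated with halofuginone for 24 hours. Rosa26 is a locus used as a neutral target, Atf4 encodes the main transcription factor of the integrated stress response, and Cebpg encodes a partner of ATF4 on DNA. Halofuginone inhibits prolyl-tRNA synthetase, so uncharged proline tRNA builds up and the kinase GCN2 is engaged. Mouse strain and age, guides and editing efficiency are not stated in the labels, and neither is whether the 3 libraries of each group had separate mice or cultures as their source. The p-values therefore measure only the spread between these libraries, which may be technical.

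Ribosomal protein mRNAs are among the most abundant in a growing cell and are made in near-matched amounts, since each protein but the stalk pair is present once in the ribosome. Most begin with a short run of pyrimidines, the 5′ terminal oligopyrimidine or TOP motif, through which LARP1 and the mTORC1 pathway control their translation and their stability during amino acid shortage. T cells raise ribosome production strongly when they are activated.

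Depth ran from 14.2 to 20.3 M counts per library. Cd8a stood at 929.6 to 1169 CPM (counts relative to the library's TMM-scaled total, throughout), while the B cell gene Cd79a reached at most 0.793 and the platelet gene Ppbp 1.08 CPM. Foxp3, a gene of regulatory T cells, was at 4.73 to 11.3 CPM, and the other 10 markers of CD4, B, myeloid, NK and erythroid cells were not among the genes analysed. Atf4 mRNA was at 267 to 378 CPM in the Atf4 knockout libraries, and Cebpg mRNA at 53.9 to 105 CPM in the Cebpg knockout libraries, so mRNA levels do not check these labels, since an edit that breaks a reading frame need not lower a count. The library name of untreated Atf4 knockout replicate 1 carries an added R whose meaning is not given. In 3 libraries the ribosomal protein genes stood above the rest of their group: halofuginone-treated Rosa26 replicate 2, halofuginone-treated Atf4 knockout replicate 3 and halofuginone-treated Cebpg knockout replicate 3. Of the 79 members with a mean of at least 5 CPM, 79, 78 and 79 lay above their group mean there, with a median deviation of 0.29, 0.49 and 0.17 on the log2 scale. Malat1, a nuclear noncoding RNA, was lowest in the same libraries of each group, at 672, 1158 and 1960 CPM against 2074 to 3580 CPM in the other 6 treated libraries. A smaller deviation of the same kind stood in untreated Atf4 knockout replicate 1, untreated Rosa26 replicate 2 and untreated Cebpg knockout replicate 1, where 76, 72 and 71 of the 79 members lay above their group mean, by a median of 0.14, 0.07 and 0.11. Malat1 was lowest of its group in the first and second of these, at 2026 and 858 CPM, but not in the third. The 3 treated libraries are named because of their own ribosomal protein values, so a count without them is conditioned on the quantity counted and stands beside the count with 18 libraries as a description. Some treated libraries also lay well below their group mean. Treated Cebpg knockout replicate 1 stood at -0.19, with 0 of 79 members above the mean, and replicate 2 at 0.02. Replicate 3 of that group is thus no further from the mean than replicate 1. Treated Atf4 knockout replicate 2 stood at -0.32, with 1 of 79 above. Values are with 18 libraries unless another fit is named.

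Summed over all 83 genes, ribosomal protein mRNA made up a higher share of the counts in halofuginone-treated than in untreated Rosa26 cells. The share was 9.32%, 9.86% and 9.21% in the untreated Rosa26 libraries (9.47% ± 0.347, SD, n = 3) and 11.3%, 13.3% and 10.9% with halofuginone (11.8% ± 1.29). No treated Rosa26 library overlapped an untreated one, also without replicate 2, the highest. In Atf4 knockout cells the share was 10.8%, 9.73% and 9.42% untreated (9.97% ± 0.704) and 9.98%, 9.05% and 13.02% with halofuginone (10.7% ± 2.08), so the groups overlapped and the mean rested on replicate 3. In Cebpg knockout cells it was 9.82%, 8.77% and 8.98% untreated (9.19% ± 0.555) and 9.51%, 10.2% and 11.3% with halofuginone (10.3% ± 0.899), and 1 treated library lay within the untreated range. A share is relative to all other mRNA, and in a bulk sample fewer cells of a type and less RNA per cell cannot be told apart.

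**Figure D1:**
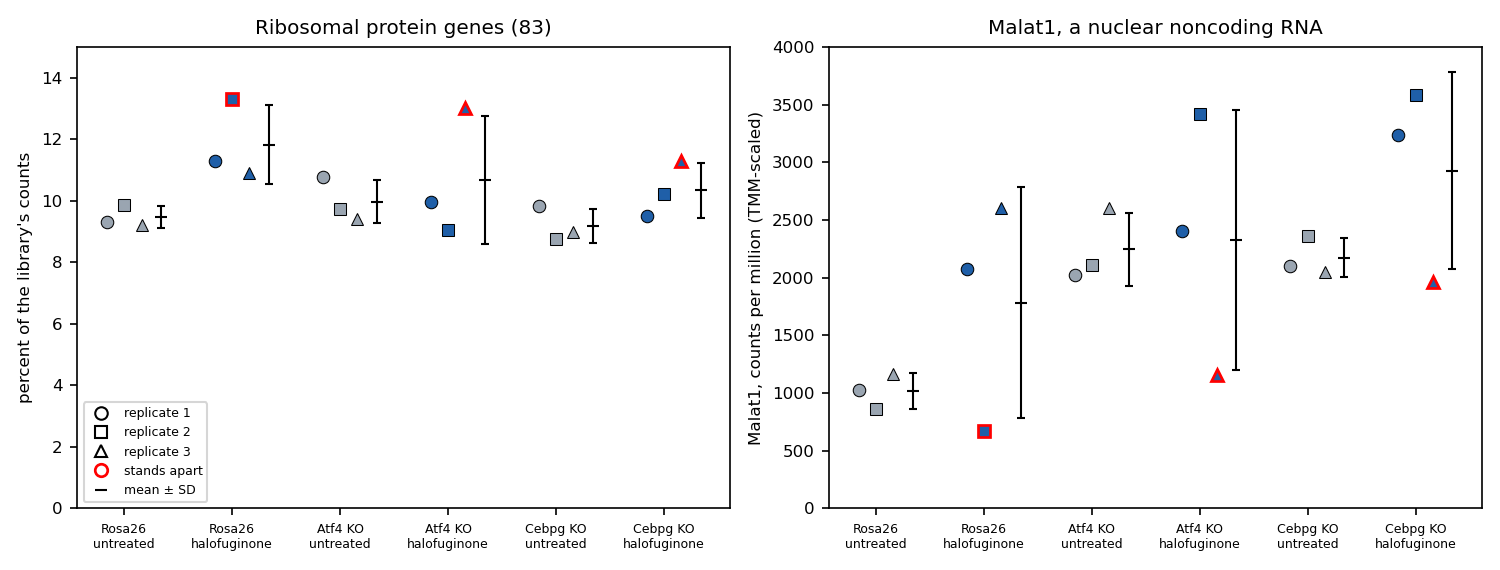
Left, share of each library's counts that falls on the 83 ribosomal protein genes (percent). Right, Malat1 in TMM-scaled CPM. Points are libraries, bars are the mean ± SD of 3, and a red edge marks the 3 libraries that stand apart. These 3 have the highest ribosomal protein share and the lowest Malat1 of their groups, 13.3%, 13.02% and 11.3% against 672, 1158 and 1960 CPM.

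The 2 subunits moved together from library to library. The ratio of large to small subunit counts lay between 1.19 and 1.26 in all 18 libraries. Within the set the mean level ran from 0.774 CPM for Rps3a3 to 3873 CPM for Rpsa, the laminin receptor homologue of the small subunit, with a median of 1110 CPM. After Rpsa the highest were Rplp0, the stalk base, Rpl4, a core protein of the large subunit, and Rps2 of the small subunit. Lowest were Rps3a3, Rpl6l, Rpl24 and Rps3a2, 3 of them annotated pseudogenes.

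Levels were also divided by coding length, which leaves out the untranslated parts of each mRNA. The result compares genes only roughly and may be too high where the coding sequence is short. The protein-coding members had a median of 2482 CPM per kb. Rpl41, which encodes a very short peptide from 75 coding bases, had the highest value at 15803 CPM per kb. Next was the stalk protein gene Rplp1 at 7224 CPM per kb. The paralogues were lower than the widely used genes: Rpl7l1 stood at 151, Rpl22l1 at 539 and Rps27l at 590 CPM per kb, against 2215 CPM per kb for Rpl7 and 1638 CPM per kb for Rpl22. Rpl19 was the lowest of the other subunit and stalk genes at 1068 CPM per kb once Rpl24, Rps10 and Rpl13a were set aside. Those 3 genes encode core ribosomal proteins but were listed at 1.37, 7.15 and 23.7 CPM, and each overlaps another annotated gene (Gm28037, the readthrough gene RPS10-NUDT3 and Gm45713).

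Shared sequence bears on every level given here. Of 82 members with a value, 25 had every 100-base window of their coding sequence also in another annotated gene, mostly pseudogenes, 58 had over 50% of windows shared and 6 (Rps3, Rps21, Rps27l, Rpl22 and Rpl32 among them) had none. How the authors counted reads that fit several genes is not stated in the labels, so the level of most members is uncertain by the reads they share. In Rosa26 cells the median log2 fold change with halofuginone was 0.31 for the 25 fully shared members, 0.24 for the 33 members shared over 50% but not fully, and 0.28 for the 24 shared up to 50%, and 8, 5 and 3 of them were called higher. In Cebpg knockout cells the medians were 0.10, -0.01 and 0.15. Whether the response differs with the degree of sharing was not tested.

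**Figure D2:**
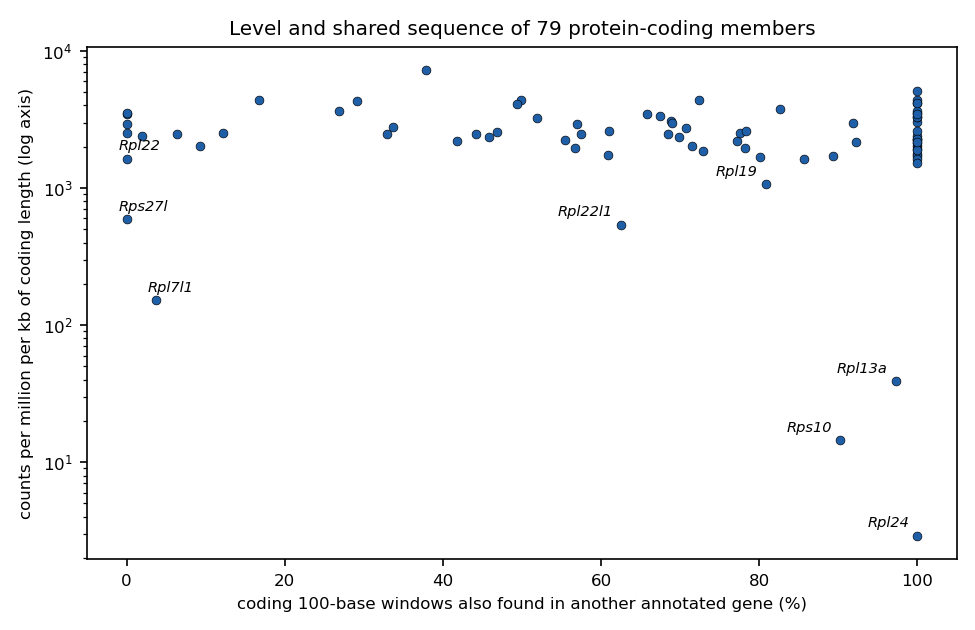
Mean level of 79 protein-coding members per kb of coding length (log axis, CPM per kb) against the percent of their 100-base coding windows also found in another annotated gene. Most members lie near the median of 2482 CPM per kb at any degree of sharing, and Rpl24, Rps10 and Rpl13a lie far below it.

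With halofuginone, Rosa26 cells had a higher level of 16 ribosomal protein mRNAs and a lower level of 2 (edgeR's quasi-likelihood test, adjusted p under 0.05), against a background of 23.6% of all 14695 genes higher and 24.1% lower. The members called are thus no larger a share than among all genes, but they lie mostly on 1 side: 68 of 83 fold changes were positive, and the median was 0.26 against 0.02 over all genes (log2). The 16 were Rps27, Rpl19, Rpl17, Rpl12, Rps15a, Rpl5, Rps14, Rplp2, Rps16, Rps6, Rpl4, Rpl13, Rpl18, Rps13, Rpl9 and Rpl29, with log2 fold changes from 0.32 to 0.77. By subunit, 9 of 43 large subunit genes, 6 of 31 small subunit genes and 1 of 3 stalk genes were higher. Without the 3 libraries that stand apart, 29 members were higher and 10 lower (15 and 1 of those above among them), the median was 0.16, and 30.1% of all genes were higher and 27.5% lower. Leaving out 1 library, 6 were higher without treated replicate 2, and 7 and 8 without untreated replicates 1 and 3.

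In the knockouts the response was split. In Atf4 knockout cells 5 members were higher and 7 lower with halofuginone, beside 23.1% and 26.5% of all genes, with a median of 0.08. In Cebpg knockout cells 7 were higher and 11 lower, beside 23.1% and 28% of all genes, with a median of 0.09. These splits move with the scaling: with size factors of the RLE method they were 12 to 7 and 15 to 10, and with upper-quartile scaling 18 to 8 and 21 to 9. The median of all genes moved up too, by 0.04 and 0.05 with RLE and by 0.06 and 0.11 with upper-quartile scaling. Calls over all genes were not counted under these scalings. Without the 3 libraries the Atf4 knockout counts became 5 higher and 35 lower (3 and 7 of those above among them), beside 26.7% and 29.8% of all genes, and the median turned to -0.18. The Cebpg knockout counts became 16 and 21, beside 27.6% and 29.5% of all genes, with a median of 0.04. Leaving out 1 library, the higher members ran from 1 (without untreated Atf4 knockout replicate 2) to 22 (without treated replicate 2) in Atf4 knockout and from 1 (without treated replicate 3) to 11 (without treated replicate 1) in Cebpg knockout cells.

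Across the 3 genotypes 17 members were higher in at least 1 and 11 lower in at least 1, no member was called in both directions, and 55 were called in none. This does not hold without the 3 libraries that stand apart, where Rplp2, Rpl23a, Rps4x, Rpsa and Rpl27 were called higher in Rosa26 and lower in Atf4 knockout cells. Counts in at least 1 genotype, in both directions or in none were not taken over all genes. They therefore stand without a background and describe these members alone. In all 3 genotypes Rpl4, Rpl5, Rpl12, Rpl17 and Rps15a were higher and Rps10 and Rpl7l1 lower, 5 and 2 of 83 members beside 16% and 18.8% of all genes. The calls of Rpl12 (0.24, adjusted p = 0.0875) and Rps15a (0.18, 0.293) in Atf4 knockout cells, and of Rps10 in Rosa26 cells, were lost without the 3 libraries. Over the 79 members with a mean of at least 5 CPM the log2 fold changes correlated between genotypes, with Pearson r of 0.886 for Rosa26 with Atf4 knockout, 0.905 for Rosa26 with Cebpg knockout and 0.952 for the 2 knockouts (Spearman 0.846, 0.874 and 0.947). These are descriptions across genes, which share libraries within each genotype and are not independent.

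**Figure D3:**
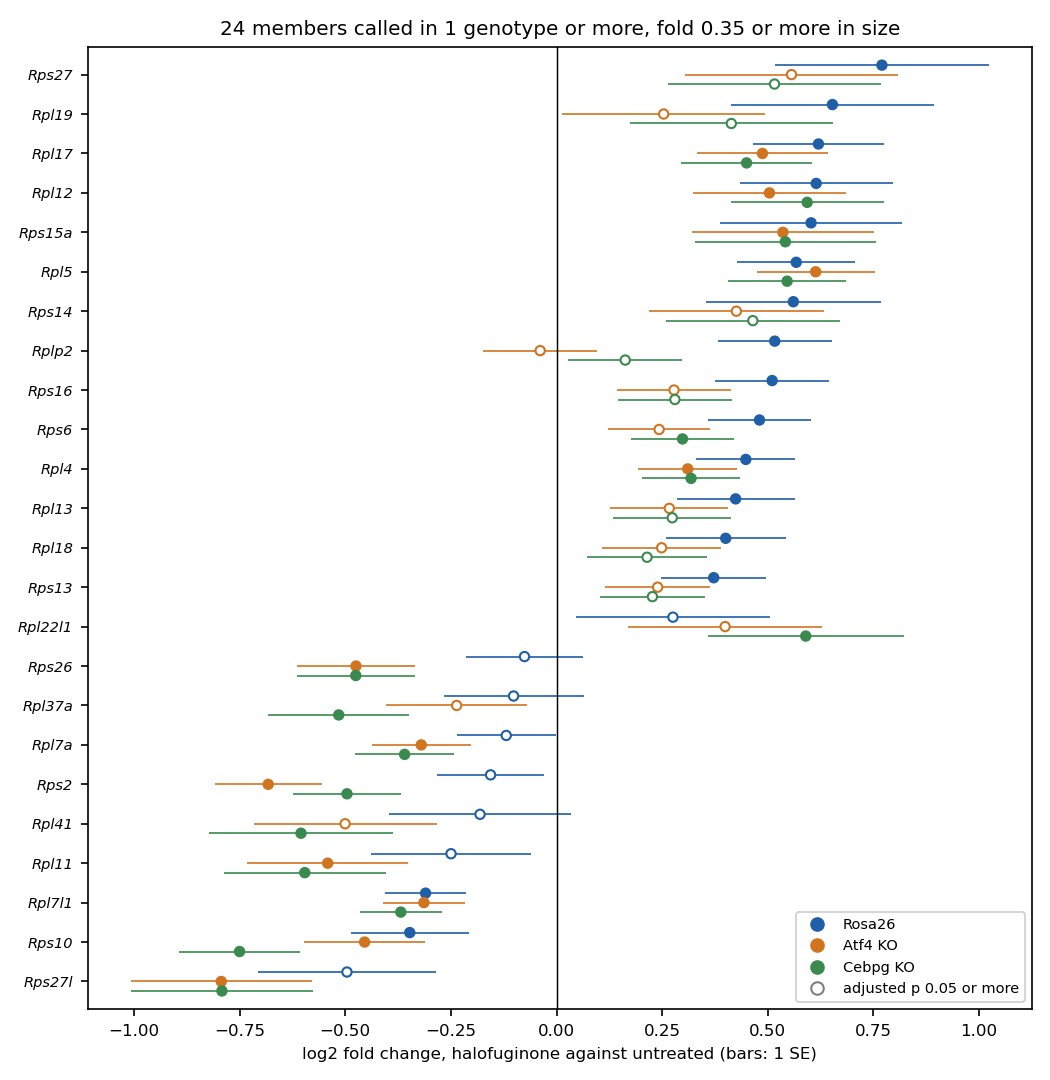
Log2 fold change with halofuginone (bars, 1 SE) of the 24 members called in at least 1 genotype with a log2 fold change of 0.35 or more in size in at least 1, for Rosa26, Atf4 knockout and Cebpg knockout cells; filled points have an adjusted p under 0.05. Rpl5 lies near 0.57, 0.61 and 0.55 in the 3 genotypes, and Rps2 at -0.16, -0.68 and -0.50.

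Rpl5 and Rpl11, which with 5S rRNA form the particle that can bind and block MDM2, went in different directions in the knockouts. Rpl5 was at 1421, 1477 and 1364 CPM in untreated Rosa26 cells and at 1948, 2464 and 1904 CPM with halofuginone. Its levels in Atf4 knockout cells were 1485, 1332 and 1346 CPM untreated and 1856, 1736 and 2777 CPM treated, and in Cebpg knockout cells it went from 1429.8, 1262 and 1293 to 1735, 1972 and 2110.3 CPM. No treated library overlapped an untreated one in any genotype, and the log2 fold changes were 0.57 ± 0.14 (SE, adjusted p = 0.00238), 0.61 ± 0.14 (0.00119) and 0.55 ± 0.14 (0.00293). Each of these calls held with any 1 library left out, with adjusted p up to 0.0157.

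Rpl11 in contrast was at 1319.7, 1101 and 1154 CPM in untreated Cebpg knockout cells and at 645, 823 and 898 CPM with the drug, without overlap. Its log2 fold change was -0.60 ± 0.19 there (adjusted p = 0.0159) and -0.54 ± 0.19 in Atf4 knockout cells (0.0271), where replicate 3 at 1105 CPM overlapped the untreated range. In Rosa26 cells it was -0.25 ± 0.19 (adjusted p = 0.307) and did not pass, but without the 3 libraries that stand apart it was -0.39 (0.0254) and did. In Atf4 knockout cells it missed the threshold without treated replicate 1 or 2 or untreated replicate 1 or 2 (adjusted p up to 0.125), and in Cebpg knockout cells without treated or untreated replicate 1 (0.075 and 0.0585).

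Rpl12, part of the stalk base, was at 1680.0, 1714 and 1587 CPM in untreated Rosa26 cells and at 2347, 3122 and 2159 CPM with halofuginone, and its log2 fold changes were 0.61, 0.50 and 0.59 in Rosa26, Atf4 knockout and Cebpg knockout cells. The treated and untreated Atf4 knockout libraries overlapped for Rpl12 (1931 against 1991 CPM). Rpl4 rose from 2768, 2848 and 2700.2 to 3555, 4371 and 3418 CPM in Rosa26 cells, without overlap there or in either knockout, with log2 fold changes of 0.45, 0.31 and 0.32. Rpl4 is the better measured of these: 6.39% of its windows are shared, against 100% for Rpl5 and Rpl12. Rpl17, near the exit of the peptide tunnel, rose by 0.62, 0.49 and 0.45 without overlap in any genotype, and Rps15a, of the small subunit, by 0.60, 0.54 and 0.54, with overlap in Atf4 knockout cells. Without treated Atf4 knockout replicate 3 the values there were 0.25 for Rpl12 (adjusted p = 0.122) and 0.19 for Rps15a (0.273). Without treated Rosa26 replicate 2 Rpl12 was at 0.43 (adjusted p = 0.0561), and without treated Cebpg knockout replicate 3 Rpl12 and Rps15a were at 0.50 and 0.46 (0.0508 and 0.137).

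Rps27 had the highest fold change of any member in Rosa26 cells, from 763, 875 and 871 to 1264, 1876 and 1138 CPM (0.77 ± 0.25, adjusted p = 0.0209). Its fold changes in the knockouts, 0.56 and 0.52, did not pass. Rpl19, of the large subunit, was second at 0.65 ± 0.24 (adjusted p = 0.0367). Without treated replicate 2 both missed the threshold, at 0.52 (adjusted p = 0.113) and 0.45 (0.156), and Rpl19 kept its call only without treated replicate 1. Rps6, the substrate of S6 kinase, rose in Rosa26 and Cebpg knockout cells (0.48 and 0.30), and in Atf4 knockout cells its fold change was 0.24. The call in Cebpg knockout cells missed the threshold without treated replicate 3 (0.20, adjusted p = 0.21) or any untreated library.

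The stalk proteins recruit elongation factors. Of their genes Rplp2 rose in Rosa26 cells, from 705, 779.5 and 753 to 973, 1248 and 979 CPM (0.52 ± 0.13, adjusted p = 0.00385). In Atf4 knockout cells its fold change was -0.04 and in Cebpg knockout cells 0.16. Rplp1 and Rplp0 had values of 0.41 and 0.25 in Rosa26 cells and did not pass (adjusted p = 0.123 and 0.0866). Rpsa at 0.26, Rpl3, the peptidyl transferase centre protein, at 0.08, Rpl7 at 0.17, Rpl39 at 0.37 and the ubiquitin fusion gene Rps27a at 0.22 did not pass either.

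Among members that fell in the knockouts, Rps2, at the mRNA entry of the small subunit, had the smallest adjusted p in Atf4 knockout cells. In Cebpg knockout cells Rps10 had it (adjusted p = 0.000167). Rps2 shares 69% of its coding windows with other annotated genes. It was at 3013, 3348 and 3001 CPM in untreated Rosa26 cells and at 2588, 3356 and 2459 CPM with the drug, which overlap, and its value there passed without the 3 libraries that stand apart (-0.27, adjusted p = 9.47e-05). In Atf4 knockout cells it went from 3210.4, 3119.5 and 2883 to 1824, 1652 and 2266 CPM (-0.68 ± 0.13, adjusted p = 0.000148), and in Cebpg knockout cells from 2852, 2771 and 2881 to 1753, 1944 and 2334 CPM (-0.50 ± 0.13, adjusted p = 0.00266). No treated library overlapped an untreated one in either knockout.

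Rps26, a small subunit protein at the mRNA exit, fell by 0.47 and 0.48 on the log2 scale in Atf4 and Cebpg knockout cells, and its value in Rosa26 cells was -0.08. Rpl7a fell by 0.32 and 0.36 in the knockouts, with -0.12 in Rosa26 cells. Without the 3 libraries that stand apart both were called lower in Rosa26 cells too, at -0.18 for Rps26 and -0.22 for Rpl7a (adjusted p = 0.00733 and 0.000358). Rpl41, Rpl37a and Rpl10, of the large subunit, were called lower in Cebpg knockout cells, at -0.60, -0.52 and -0.27, while their values in Atf4 knockout cells, -0.50, -0.24 and -0.24, did not pass, and the 2 knockouts were not tested against each other. All 3 genes were called lower in every genotype without the 3 libraries, at -0.80, -0.49 and -0.37 in Atf4 knockout and -0.36, -0.22 and -0.11 in Rosa26 cells.

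The paralogues did not follow 1 direction. Rps27l, a paralogue of Rps27 linked to p53 regulation, was at 221, 211 and 198 CPM in untreated Rosa26 cells and at 134, 187 and 126 CPM with halofuginone (-0.50 ± 0.21, adjusted p = 0.0671; -0.65 and 0.00236 without the 3 libraries that stand apart). It fell from 197, 158 and 148 to 81.7, 71.5 and 137 CPM in Atf4 knockout cells (-0.79 ± 0.21, adjusted p = 0.00635) and from 192, 150.1 and 169 to 85.8, 96.6 and 113 CPM in Cebpg knockout cells (-0.79 ± 0.21, adjusted p = 0.0063). Treated and untreated libraries did not overlap in any genotype. None of its coding windows is shared, and Rps27 itself went the other way.

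Rpl7l1, a paralogue of Rpl7 that works in ribosome assembly, fell in every genotype: from 134, 140.4 and 132 to 101, 128 and 99.4 CPM in Rosa26 cells (-0.31 ± 0.10, adjusted p = 0.0113), and by 0.31 and 0.37 in Atf4 and Cebpg knockout cells, without overlap in any. Without treated Rosa26 replicate 1 or 3, or without treated Atf4 knockout replicate 2, its adjusted p was 0.0634, 0.0655 and 0.0586. Rpl22l1, whose mRNA is repressed by Rpl22, a protein needed for αβ T cell development, was at 161, 124 and 125 CPM in untreated Cebpg knockout cells and rose to 174, 216 and 228 CPM with the drug (0.59 ± 0.23, adjusted p = 0.0468; up to 0.129 with 1 library left out, called only without treated or untreated replicate 1). In Rosa26 and Atf4 knockout cells the values were 0.28 and 0.40 and did not pass, and Rpl22 itself was at 0.23, 0.08 and 0.14. Rps10, of the small subunit head, fell by 0.35, 0.45 and 0.75 in the 3 genotypes from 6.87 to 9.84 CPM in untreated cells, and its call in Rosa26 cells was lost in 4 of 6 fits with 1 library left out and without the 3 libraries that stand apart (adjusted p = 0.0625). Its low level and its overlap with RPS10-NUDT3 are given above, so these fold changes may describe only part of its reads, which was not tested. Rpl39l, Rpl3l and Rpl10l, paralogues used mainly in testis or muscle, were not among the genes analysed, and Rps4l, outside the rule, had a value of -0.18 in Rosa26 cells.

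**Figure D4:**
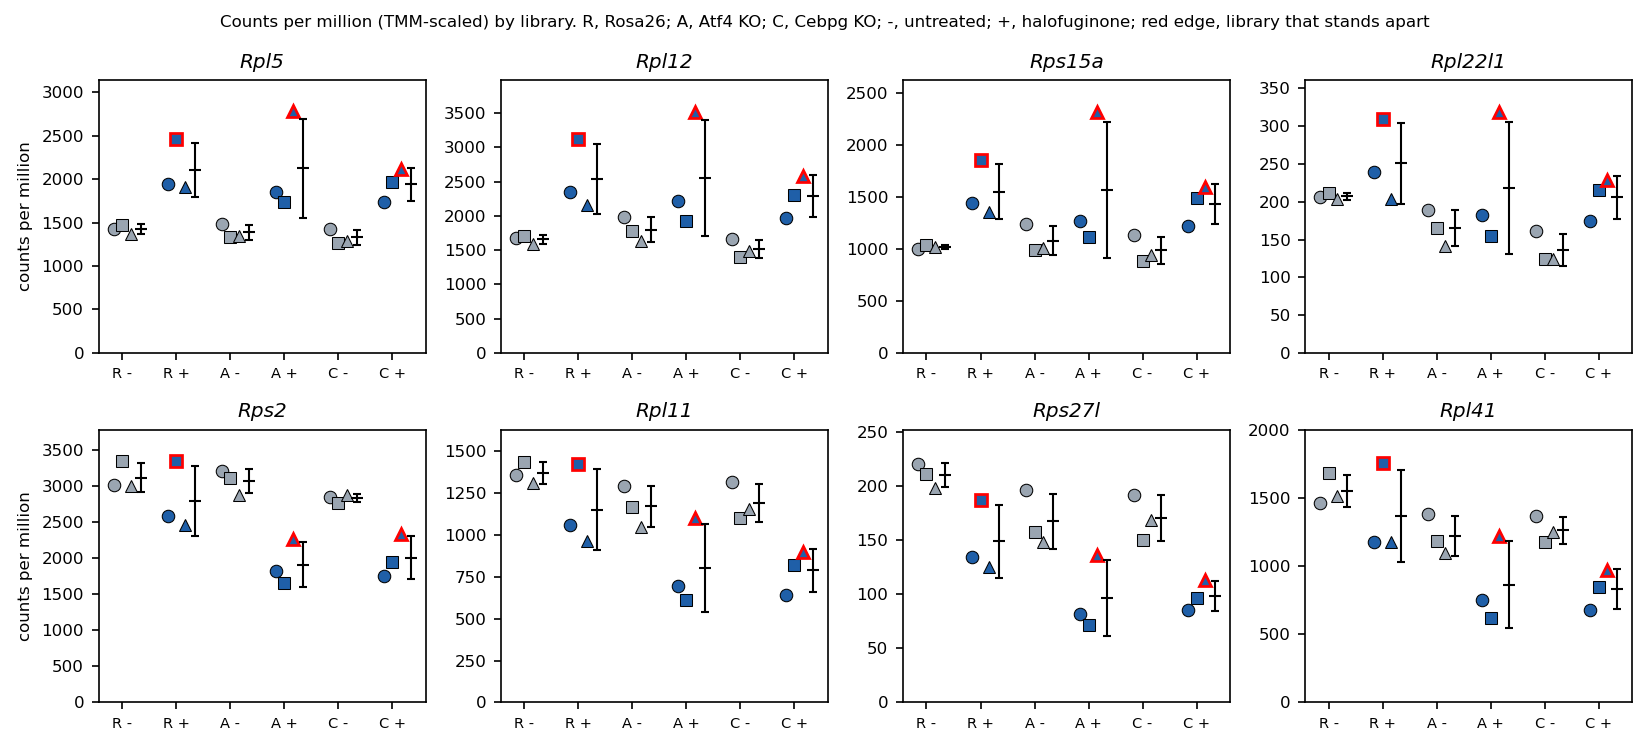
TMM-scaled CPM of 8 members in every library, with the mean ± SD of 3 libraries beside each group. Circles, squares and triangles are replicates 1, 2 and 3, and a red edge marks the libraries that stand apart. Rpl5 lies above its untreated range in every treated library (1736 to 2777 against 1262 to 1485 CPM), and Rps2 lies at 1652 to 2334 CPM in the treated knockout libraries, below all others.

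The start of the gene is shown for members that moved alike, since the TOP motif is the feature that ribosomal protein mRNAs are known for. RefSeq promoter windows of build GRCm38.p6, reaching 250 bases before to 50 after the annotated start, matched 60 members; the files were counted on another build, GRCm39, so these positions are RefSeq's alone. Each line below gives 15 bases before and 15 from the annotated start, 5′ to 3′ on the coding strand. Capitals mark the longest unbroken run of C and T that touches the 10 bases on either side of the start, as far as it lies in the 30 bases. The marked run can lie before the start and need not be the TOP motif. Rps15a has a TOP start at its annotated first base, printed in lower case because a longer run lies before it. First come members higher in all 3 genotypes (Rpl17 is not shown).
Rpl4: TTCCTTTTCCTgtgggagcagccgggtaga, chr9:64173372-64173401, plus strand.
Rpl5: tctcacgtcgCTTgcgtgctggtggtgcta, chr5:107900513-107900542, plus strand.
Rpl12: ggcggagcaggatccgTCTTTTCggctttc, chr2:32961697-32961726, plus strand.
Rps15a: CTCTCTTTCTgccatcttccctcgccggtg, chr7:118116133-118116162, minus strand.
Then members lower in all 3 genotypes.
Rps10: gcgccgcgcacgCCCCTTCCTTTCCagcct, chr17:27635230-27635259, minus strand.
Rpl7l1: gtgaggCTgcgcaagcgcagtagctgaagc, chr17:46782642-46782671, minus strand.
Last come members called lower in both knockouts but, with 18 libraries, not in Rosa26 cells, where all 5 were called lower without the 3 libraries that stand apart.
Rps2: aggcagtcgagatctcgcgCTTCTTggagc, chr17:24720048-24720077, plus strand.
Rps26: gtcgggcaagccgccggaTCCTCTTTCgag, chr10:128626492-128626521, minus strand.
Rpl11: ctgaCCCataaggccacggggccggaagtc, chr4:136053379-136053408, minus strand.
Rpl7a: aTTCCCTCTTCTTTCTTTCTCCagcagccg, chr2:26910792-26910821, plus strand.
Rps27l: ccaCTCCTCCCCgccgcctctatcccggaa, chr9:66946071-66946100, plus strand.

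Long pyrimidine runs stood among the members that rose and among those that fell. A run of at least 8 bases was found in 29 of 60 members (48.3%) and in 16.8% of 9368 tested genes with a window, and a run of at least 6 bases in 37 members (61.7%) and 33.5% of tested genes. An exact TOP start, a C at the annotated first base followed by 4 or more pyrimidines, was found in 13 members (21.7%) against 3.08% of tested genes. The runs were counted after the exact starts had been seen, since an annotated start can lie a few bases off. The 29 members with a run of at least 8 had median log2 fold changes of 0.28, 0.11 and 0.16 with halofuginone in Rosa26, Atf4 knockout and Cebpg knockout cells, and the 31 without one 0.24, 0.05 and -0.01.

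Other letters were searched on both strands of the same 300 bases, each counted on its own without regard to overlap. CCGGAAG, the core of ETS and GABP sites, was in 25 members (41.7%) and 21.4% of tested genes. ATGGCGG, the core bound by YY1, was in 11 members (18.3%) and 9.91% of tested genes. GGGCGGG, the Sp1 box, was in 29 members (48.3%) and 51.5% of tested genes. The letters TGATG, any base, AA, the core of the element through which ATF4 and CEBP proteins bind amino acid response genes, were in 0 of 60 members and in 2.68% of tested genes. A match is a description of letters in these windows.

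Without the drug no member passed the test between a knockout and the Rosa26 control. In untreated Atf4 knockout cells 0 members were higher and 0 lower, beside 11.7% and 14.3% of all genes, and at an unadjusted p under 0.05 the counts were 0 and 4. Of 83 fold changes 52 were negative, the median was -0.03, and Rpl14 came nearest at -0.29 ± 0.11 (adjusted p = 0.0541). In untreated Cebpg knockout cells the counts were also 0 and 0, beside 2.71% and 2.29% of all genes, and 0 and 2 at an unadjusted p under 0.05, with 69 of 83 negative, a median of -0.10 and Rpl22l1 nearest at -0.60 ± 0.23 (adjusted p = 0.14). For Rpsa the 95% interval of the difference ran from -0.22 to 0.33 in Atf4 and from -0.34 to 0.20 in Cebpg knockout cells. These counts depend on the estimate of spread: without the 3 treated libraries, which are in neither comparison, 3 and 9 members were called in Atf4 knockout cells (beside 21.1% and 20.8% of all genes) and 0 and 17 in Cebpg knockout cells (beside 12.5% and 14.2%). Fitting only the groups compared gave 3 and 18 for Atf4 and 0 and 23 for Cebpg, and DESeq2 with 18 libraries called 0 and 3, and 0 and 1.

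With halofuginone 13 members in Atf4 and 16 in Cebpg knockout cells were lower than in the treated control, while the summed shares of counts given above overlapped between treated knockout and treated control libraries. In Atf4 knockout cells 13 members were lower and 0 higher than in treated Rosa26 cells, beside 16.3% and 11.8% of all genes, so the share called lower is near that of all genes, and 76 of 83 fold changes were negative, with a median of -0.20 against 0.00 over all genes. In Cebpg knockout cells 16 were lower and 0 higher, beside 13.1% and 5.74% of all genes, with 80 of 83 negative and a median of -0.28 against -0.02. At an unadjusted p under 0.05 the higher members were 0 and 1. The 2 comparisons share the treated Rosa26 libraries, so their likeness is not a separate result.

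Large subunit genes made up 10 of the 13 and 12 of the 16. Rpl14, a surface protein of the large subunit, had the smallest adjusted p in both. It was at 1293, 1724 and 1257 CPM in treated Rosa26 cells, at 1007, 893 and 1056 CPM in treated Atf4 knockout cells and at 882, 885 and 1086 CPM in treated Cebpg knockout cells. Neither knockout overlapped the control, and the differences were -0.53 ± 0.11 (adjusted p = 0.00095) and -0.58 ± 0.11 (0.000832) on the log2 scale.

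Rps2 was at 2588, 3356 and 2459 CPM in treated Rosa26 cells, above all treated knockout libraries, with differences of -0.55 ± 0.13 (adjusted p = 0.0025) and -0.48 ± 0.13 (0.0114). Rpl9 was at 1406, 1934 and 1509.8 CPM in treated Rosa26 cells against 1099.5, 1057 and 1356 in Atf4 and 1000.1, 1080.0 and 1237 in Cebpg knockout cells, with differences of -0.47 and -0.55. Rpl41 had the lowest called difference in both, -0.66 ± 0.22 (adjusted p = 0.0317) and -0.72 ± 0.22 (0.0308). Its libraries stood at 1175, 1762 and 1175 CPM in treated Rosa26, 752, 618 and 1224 CPM in Atf4 knockout and 679.9, 845 and 974 CPM in Cebpg knockout cells, so 1 Atf4 knockout library overlapped the control.

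Rps27l was 0.62 lower in Atf4 knockout than in Rosa26 cells (log2 difference -0.62 ± 0.21, adjusted p = 0.0421). In Cebpg knockout cells the difference was -0.60 (adjusted p = 0.0683), and Rpl37a was called there at -0.62 (0.0159). Rpl3 was lower in both, at -0.30 and -0.34. Of the 5 members that rose with the drug in every genotype none passed here: Rpl4 differed by -0.12 and -0.23, Rpl17 by -0.17 and -0.30, Rpl5 by 0.01 and -0.12, Rpl12 by 0.01 and -0.15 and Rps15a by 0.01 and -0.11 between treated knockout and control cells. Rpl4 passed in both without the 3 libraries that stand apart, at -0.15 (adjusted p = 0.0322) and -0.20 (0.0075).

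The number of these calls moved with the libraries that stand apart, and the median differences changed in size but stayed negative. Without those 3, 52 members were lower and 0 higher in Atf4 knockout cells (all 13 kept, beside 19.8% and 14.2% of all genes, median -0.31), and 34 lower and 0 higher in Cebpg knockout cells (all 16 kept, beside 15.5% and 7.6% of all genes, median -0.21). Leaving out 1 library at a time, the lower members ran from 4 (without treated Atf4 knockout replicate 1) to 66 (without replicate 3) and from 3 (without treated Cebpg knockout replicate 1) to 24 (without replicate 3). Without treated Rosa26 replicate 2 they were 5 and 5, and Rpl41, Rpl3, Rps27l and Rpl37a missed the threshold, while Rpl14 passed with any library left out (adjusted p up to 0.00791). Fitting only the groups compared gave 1 and 6. With any 1 library left out the median difference stayed negative. For Atf4 it ran from -0.44 (without treated Atf4 knockout replicate 3) to -0.07 (without replicate 2). For Cebpg it ran from -0.37 (without treated Rosa26 replicate 3) to -0.12 (without treated Rosa26 replicate 2).

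**Figure D5:**
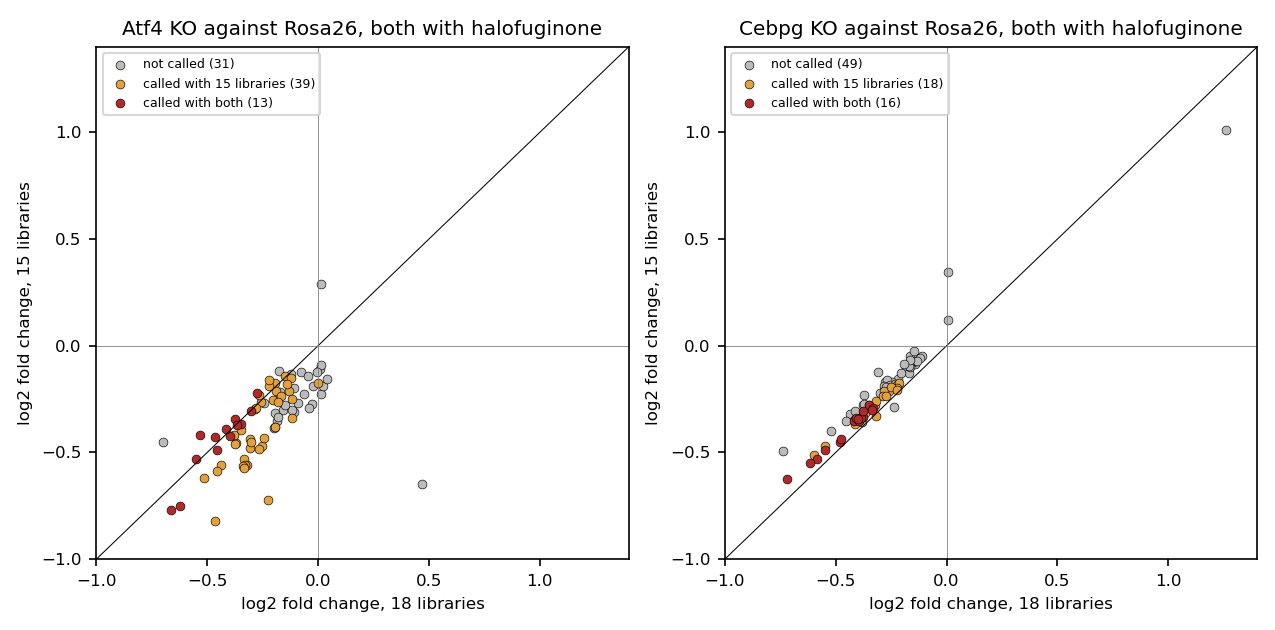
Log2 difference between treated knockout and treated Rosa26 cells for the 83 members, fitted with all 18 libraries (x axis) and without the 3 that stand apart (y axis), with the line of equal values. All 13 and 16 members called with 18 libraries are also called with 15, beside 39 and 18 more; the annotated pseudogene Rps3a3 has the highest value for Cebpg knockout, 1.26.

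The test of whether the drug response itself differed between genotypes called no member. For Atf4 knockout against Rosa26 the counts were 0 higher and 0 lower, beside 2.41% and 4.01% of all genes, and 0 and 4 at an unadjusted p under 0.05. For Cebpg knockout they were 0 and 0, beside 0.374% and 2.1% of all genes, and 0 and 3. The medians, -0.20 and -0.21, lay below those over all genes, -0.06 and -0.06, and 75 and 78 of 83 values were negative. Leaving out 1 library at a time, the member medians ran from -0.37 to -0.03 for Atf4 and from -0.30 to -0.01 for Cebpg. Both upper ends came without treated Rosa26 replicate 2, which is among the libraries that stand apart. The lower end for Atf4 came without treated Atf4 knockout replicate 3, also among them. Without all 3 libraries that stand apart the medians were -0.29 and -0.14, so their size depends on which libraries are left out. Both tests use the same Rosa26 libraries. Rps2 had the smallest adjusted p for Atf4 knockout (-0.53, 95% interval -0.88 to -0.18, adjusted p = 0.0898) and Rpl6 for Cebpg knockout (adjusted p = 0.348). Rplp2 followed at -0.56 for Atf4 knockout (interval -0.93 to -0.18, adjusted p = 0.0955). For Rpl5 the difference in response was 0.05 (interval -0.34 to 0.43) and -0.02 (-0.41 to 0.36).

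Without the 3 libraries 21 members responded lower in Atf4 knockout than in Rosa26 cells and 9 in Cebpg knockout, and none higher. This stands beside 9.68% and 5.43% of all genes lower and 5.25% and 1.72% higher. These counts are descriptions, since the 3 libraries were picked on the values of these genes. DESeq2 with all 18 libraries called 2 members lower for Atf4 knockout and 0 for Cebpg knockout.

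Genes close to the rule by name or function were mixed. Fau, the ubiquitin-like fusion of Rps30, rose by 0.57, 0.57 and 0.43 with halofuginone in Rosa26, Atf4 knockout and Cebpg knockout cells, and Rack1 by 0.54, 0.33 and 0.40. Rpl36al, at 0.498 to 1.9 CPM, fell in Rosa26 cells (-1.40 ± 0.33, adjusted p = 0.0016), with -0.16 and -0.30 in the knockouts, which did not pass.

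Of 22 TOP mRNAs outside the members, 5 rose and 7 fell with halofuginone in Rosa26 cells, beside 23.6% and 24.1% of all genes, with a median of -0.01. Those with the smallest p all fell: Hnrnpa1, a splicing factor, from 1125 ± 36.3 to 649 ± 23.1 CPM (mean ± SD), Eif3l, of the initiation factor eIF3, from 274 ± 8.8 to 167 ± 16.5 CPM, and Nap1l1, a histone chaperone, by 0.53 on the log2 scale. Between treated knockout and treated control cells 10 of the 22 were lower and 0 higher for Atf4 (beside 16.3% and 11.8% of all genes, median -0.25), and 12 lower and 1 higher for Cebpg (beside 13.1% and 5.74%, median -0.29).

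Genes of the factors that escort new ribosomal proteins or make rRNA were mostly lower where called, while with halofuginone 24.1%, 26.5% and 28% of all genes fell and 23.6%, 23.1% and 23.1% rose in Rosa26, Atf4 knockout and Cebpg knockout cells. Of 10 dedicated chaperones, 5 fell and 1 rose in Rosa26 cells with halofuginone, 7 fell and 0 rose in Atf4 knockout and 6 fell and 0 rose in Cebpg knockout cells, with medians of -0.42, -0.34 and -0.40. Grwd1, the chaperone of Rpl3, went from 86.1 ± 2.47 to 36.8 ± 3.1 CPM in Rosa26 cells (-1.23 ± 0.09, adjusted p = 1.46e-09), Rpf2, which brings the Rpl5 and Rpl11 particle to the ribosome, fell by 0.92 and Heatr3, a carrier of Rpl5, by 0.62. Of 14 genes of RNA polymerase I and its factors, 10, 4 and 7 fell in the 3 genotypes and 0 rose, with medians of -0.28, -0.15 and -0.24, and the 4 in Atf4 knockout cells are a share near that of all genes. Polr1b, its second subunit, went from 132 ± 6 to 83.01 ± 2.89 CPM in Rosa26 cells, and Polr1d and Polr1g fell by 0.63 and 0.59.

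Genes that sense stalled ribosomes went both ways. Of 16, 4 rose and 6 fell in Rosa26 cells, 5 and 4 in Atf4 knockout and 5 and 6 in Cebpg knockout cells, with medians of -0.10, -0.04 and -0.12, beside the same shares of all genes. Gtpbp2, which rescues stalled ribosomes, went from 105 ± 3.08 to 235 ± 11.4 CPM in Rosa26 cells, from 111 ± 4.21 to 159.5 ± 3.1 in Atf4 knockout and from 112 ± 1.9 to 146 ± 2.3 in Cebpg knockout cells. Usp10, a ribosome deubiquitinase, fell by 0.60 in Rosa26 cells and Rnf14, a ubiquitin ligase at stalled ribosomes, rose by 0.46. A list of 11 genes held LARP proteins, S6 and Rps6ka kinases, translation repressors and mTORC1. Of these, 2 rose and 5 fell in Rosa26 cells and in Atf4 knockout cells, and 1 rose and 5 fell in Cebpg knockout cells. The medians were -0.15, -0.15 and -0.13, and Rps6ka1, Larp4 and Larp4b were down by 0.72, 0.52 and 0.37 in Rosa26 cells.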

How the data were processed

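Per the file headers and the whole-number values, the authors deposited raw read counts per gene for 18 libraries. Per the submitters' processing notes the tools were FastQC, MultiQC, Trimmomatic, STAR, HTSeq and edgeR and the build GRCm39. Versions, the strand setting and the handling of reads that fit several genes are not stated there. The table was already filtered, since every gene had at least 0.597 CPM in 3 libraries. Of 449 blank names, 431 were filled from a GENCODE annotation by gene identifier.

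All 14695 genes and 18 libraries entered 1 fit (edgeR 4.0.16, R 4.3.3, TMM factors, robust quasi-likelihood F test, 1 term per group) with 9 contrasts, Benjamini-Hochberg over all genes, and calls at an adjusted p under 0.05. The fit was tested on simulated data with independent genes and the same spread for every gene. That simulation holds no shift of many genes together in a library, so it does not test the fit for such shifts. Fold changes are log2 with standard errors, and intervals are 95%. Alternatives used DESeq2 1.42.0, limma 3.58.1, other scalings and filters, a replicate block and libraries left out. In no compared pair of groups did all 3 same-numbered pairs of libraries correlate above 0.1, so the numbers were not taken to pair them.

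Members and gene lists were chosen with earlier results of these data known. Named were a panel of members, the 4 highest and 4 lowest called members of each comparison, the 4 highest and lowest levels, the 3 genes with the smallest p of each list, and the edge of the name rule. Other members named, such as Rpl7a, Rpl10 and Rpl6, were chosen after their values were seen.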

Additional observations from a re-analysis of the deposited data

Results flagged for a closer look

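No ribosomal protein gene is given here, since no member passed the test of a difference in drug response between genotypes with all 18 libraries. Among the listed genes around the ribosome, 4 did, by the edgeR interaction test against Rosa26 cells. They came from the lists of 16 (stalled ribosomes), 14 (RNA polymerase I) and 11 genes (LARP proteins and mTORC1). The lists of 22 TOP mRNAs and 10 chaperones held none. Over all genes 2.41% responded higher and 4.01% lower for Atf4, and 0.374% and 2.1% for Cebpg. Whether the lists differ from these shares was not tested. Gtpbp2, the rescue factor of stalled ribosomes, rose less in both knockouts, with a difference in log2 fold change of -0.64 for Atf4 (adjusted p = 2.11e-05) and -0.78 for Cebpg (3.42e-06). Eif4ebp1, the translation repressor that mTORC1 phosphorylates, went from 38.7 ± 1.43 to 61.1 ± 7.08 CPM in Rosa26 cells and from 27.3 ± 1.14 to 25.1 ± 3.61 CPM in Atf4 knockout cells, a difference of -0.78 (adjusted p = 0.00144), and of -0.66 for Cebpg (0.0102). Polr1a, the largest subunit of RNA polymerase I, fell further in Atf4 knockout cells, with a difference of -0.36 (adjusted p = 0.0306), and Hbs1l, a ribosome rescue factor, rose more there, with a difference of 0.28 (0.0481).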

How the results depend on the processing

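No called value of a named member changed sign under any alternative run. Of 38 named called values, 38 stayed past the threshold with RLE size factors and 37 each with DESeq2, voom quality weights, upper-quartile scaling, TMM factors without the members and a filter at 5 CPM. With a replicate block 32 did, with only the groups compared 30, and without the 3 libraries that stand apart 35. Upper-quartile scaling shifted the median of all genes by 0.11 in Cebpg knockout cells, and no other scaling by over 0.1.

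Counts of called members (main value first) moved more, and the cause was not tested. Higher with halofuginone in Rosa26 (16): 37 with the filter, 40 upper-quartile, 35 groups compared, 29 without the 3 libraries. Lower there (2): 1 with the filter, upper-quartile, block or TMM without members, 6 voom, 10 without the 3. Higher in Atf4 knockout (5): 18 filter, 14 DESeq2, 12 RLE, 18 upper-quartile, 2 groups compared, 3 block. Lower there (7): 24 voom, 35 without the 3. Higher in Cebpg knockout (7): 20 filter, 16 DESeq2, 15 RLE, 21 upper-quartile, 18 voom, 31 groups compared, 4 block, 16 without the 3. Lower there (11): 21 without the 3. Untreated Atf4 knockout higher (0): 3 groups compared, 3 without the 3. Lower (0): 1 filter, 3 DESeq2, 3 RLE, 7 voom, 18 groups compared, 9 without the 3. Untreated Cebpg knockout lower (0): 1 DESeq2, 7 voom, 23 groups compared, 17 without the 3. Treated Atf4 knockout lower (13): 41 voom, 1 groups compared, 52 without the 3. Treated Cebpg knockout lower (16): 6 groups compared, 34 without the 3. Response lower in Atf4 knockout (0): 2 filter, 2 DESeq2, 3 upper-quartile, 7 voom, 21 without the 3; in Cebpg knockout (0): 9 without the 3.

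Leaving out 1 library at a time, the counts ran from 6 to 21 higher and 0 to 5 lower in Rosa26, 1 to 22 and 4 to 23 in Atf4 knockout, and 1 to 11 and 5 to 13 in Cebpg knockout, and from 4 to 66 and 3 to 24 lower in the treated knockouts. The response counts ran from 0 to 10 lower for Atf4 and stayed at 0 for Cebpg. The median in Atf4 knockout cells ran from -0.17 without treated replicate 3 to 0.24 without treated replicate 2. Same-numbered libraries correlated between -0.687 and 0.527, with all 3 above 0.1 in 1 of 15 group pairs, which is not a pair compared, so the block pairs libraries by number alone. Of the compared pairs, untreated and treated Rosa26 cells came nearest (0.0143, 0.224 and 0.181), and all 3 libraries correlated best with their own number there, a hint from the data and not from the design.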
